A study of Mus musculus with 2 samples.

Results

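Sterol synthesis from squalene to cholesterol was followed through 9 genes, taken by symbol from the 31053 genes listed in the deposited files: Sqle, Lss, Cyp51, Msmo1, Nsdhl, Hsd17b7, Ebp, Sc5d and Dhcr7. Each symbol belonged to 1 gene ID. Their transcripts were counted in single liver cells of C57BL/6 mice kept for 6.5 weeks on chow or on a NASH diet, which the labels describe as high in fructose, fat and cholesterol. NASH stands for non-alcoholic steatohepatitis, a fatty and inflamed liver. Cells were released with collagenase and collected on a Percoll gradient to hold hepatocytes of various densities and non-parenchymal cells. The series holds 1 library per diet. The labels name neither the number of mice behind a library nor their age or sex.

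Cholesterol is built from acetyl units through mevalonate and squalene, and the enzymes described here carry out the steps after squalene. Squalene epoxidase (Sqle) and lanosterol synthase (Lss) make the first sterol, and Cyp51 and the complex of Msmo1, Nsdhl and Hsd17b7 strip methyl groups from it. Ebp moves, Sc5d adds and Dhcr7 removes a double bond of the ring. Hepatocytes are a main site of this pathway. Genes of the pathway are induced by the transcription factor encoded by Srebf2 when membrane cholesterol is low, and that factor acts together with others that bind CCAAT boxes and GC boxes.

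Positions were read from GENCODE M21 for the mouse build GRCm38. Lss lies on chromosome 10 from 76531588 to 76557138 on the plus strand, and an antisense gene, 4930483K19Rik, overlaps it. Cyp51 lies on chromosome 5 from 4081145 to 4104746 on the minus strand, and Akap9 overlaps it on the opposite strand. The sources used here do not say whether counting used the strand, so reads of these overlapping pairs may not be separable. The other 7 members had 0 overlapping genes. Sqle lies on chromosome 15 (59315077 to 59331192, plus strand), Msmo1 on chromosome 8 (64718139 to 64733792, minus strand), Hsd17b7 on chromosome 1 (169949535 to 169969241, minus strand) and Sc5d on chromosome 9 (42251595 to 42264256, minus strand). Dhcr7 lies on chromosome 7 (143823145 to 143848410, plus strand). Nsdhl (72918557 to 72958514, plus strand) and Ebp (8185329 to 8193512, minus strand) are both on chromosome X.

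RefSeq promoter windows of build GRCm38.p6 were found for 8 of the 9 members, in 10 windows, since Dhcr7 has several starts. Over the 250 bases before each start and on both strands, CCAAT was found in 8 of 8 members and 8 of their 10 windows. This compares with 33.8% of all 32851 promoters. Dhcr7 held CCAAT only in its window from 143829964 to 143830263. GGGCGG was also found in 8 of 8 members and 9 of 10 windows, against 32.7% of all promoters. CACGTG was found in 3 of 8 members, Hsd17b7, Sc5d and Dhcr7, and in 3 of 10 windows, against 6.02%. TCACNCCAC was found in 0 of 8 members, against 1.05%. Msmo1 and Hsd17b7 each held 3 CCAAT matches in their window. The 200 bases before the most upstream annotated start are shown for 3 members, 1 from the first steps and 2 from the late steps, whose diet differences ran from 5.55-fold to 1.36-fold. That start is the RefSeq one for Sc5d, which lies upstream of the GENCODE gene given above. CCAAT, or ATTGG where it reads on the other strand, is in capitals.
Lss, chr10:76531388-76531587, plus strand: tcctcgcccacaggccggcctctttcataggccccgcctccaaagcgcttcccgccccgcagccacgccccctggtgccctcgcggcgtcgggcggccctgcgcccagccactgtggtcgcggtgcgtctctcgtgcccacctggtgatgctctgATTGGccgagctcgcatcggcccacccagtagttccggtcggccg
Sc5d, chr9:42264301-42264500, minus strand: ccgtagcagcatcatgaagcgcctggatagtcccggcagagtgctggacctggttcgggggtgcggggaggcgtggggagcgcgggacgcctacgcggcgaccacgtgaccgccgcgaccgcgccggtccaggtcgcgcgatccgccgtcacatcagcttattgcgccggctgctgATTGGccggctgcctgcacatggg
Ebp, chrX:8193513-8193712, minus strand: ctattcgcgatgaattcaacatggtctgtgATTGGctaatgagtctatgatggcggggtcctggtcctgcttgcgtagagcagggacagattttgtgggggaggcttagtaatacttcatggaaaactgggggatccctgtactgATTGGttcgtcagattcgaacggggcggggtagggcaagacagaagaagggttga
The shown window held 1 CCAAT match for Lss, 1 for Sc5d and 2 for Ebp, all on the strand opposite to the gene. The same 200 bases of Cyp51 and Dhcr7, not shown, held no CCAAT match. A match describes letters in the window and is not a measured binding site.

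The chow library held 71635757 UMIs (unique molecular identifiers, each counting 1 captured RNA molecule) over 7359 barcodes, and the NASH diet library 39440182 over 5881, and 69 barcode sequences occurred in both. Hepatocyte-like cells, named by clustering with sterol pathway genes left out, numbered 2073 in chow with a median of 23667 UMIs and 1126 in the NASH diet with a median of 19858. Their median share of mitochondrial UMIs was 18.1% and 23.1%. The class was named from 10 hepatocyte markers, so their levels in it are no separate check of the label. Among them albumin (Alb) stood at 25304 CPM in hepatocyte-like cells and 786 in other cells of chow. The same gene stood at 36602 and 1205 CPM in the NASH diet. Most chow hepatocyte-like cells were in clusters led by Cyp2c29, by Spp1 and Cdh1, or by Fdps, and most of the NASH diet were in clusters led by Apoa4 or Cyp4a10, so different clusters held the class in the 2 libraries. Members were among the leading genes of 2 chow clusters although 0 of 9 were used for clustering. With 1 library a diet there was no test between diets, and the 95% intervals below are exact and cover counting error only. Levels are in CPM, the UMIs of a gene per 1000000 UMIs of the cells named.

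In hepatocyte-like cells, 8 of the 9 members were at least 2-fold lower in the NASH diet library than in the chow library, and none was higher by that much. Of 7922 genes with a mean of at least 5 CPM, 2.28% were lower by at least 2-fold. By at least 4-fold 6 members were lower, against 0.694% of genes, and by at least 8-fold 5 members, against 0.303%. The summed level of the members was 1720 CPM in chow and 381 CPM in the NASH diet, a log2 ratio of -2.17 (interval -2.21 to -2.14). The median log2 ratio of the 9 members was -3.05, while that of all genes tested was 0.15. In other words 1 UMI in 581 came from a member in chow hepatocyte-like cells, and 1 in 2625 in those of the NASH diet.

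The first sterol-forming steps held the member with the lowest ratio. Sqle, the oxygen-dependent enzyme that opens the sterol branch, was measured at 156 CPM (interval 152 to 159) on chow, against 1.06 CPM (0.68 to 1.58) on the NASH diet, a log2 ratio of -7.19 (-7.84 to -6.62). Of the 7922 genes tested, 0 had a lower ratio. Its 24 NASH diet UMIs came from 20 of 1126 cells, and 1 cell held 5 of them, whereas 1674 of 2073 chow cells held at least 1. With a mitochondrial limit of 10%, which left 5 Sqle UMIs in the NASH diet, the log2 ratio was -4.07, and the chow cells then had a median of 670 UMIs and the NASH diet cells one of 6003. With a pseudocount of 5 CPM it was -4.73, and those of Lss and Nsdhl were -1.75 and -3.49. Lss, which folds oxidosqualene into lanosterol, was measured at 30.2 CPM (28.6 to 31.8) on chow, against 5.44 CPM (4.52 to 6.49) on the NASH diet, a log2 ratio of -2.47 (-2.75 to -2.21).

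The demethylating enzymes spread over a wide range of ratios. Cyp51, the demethylase that acts first on lanosterol, was measured at 269 CPM (264 to 273) on chow, against 17.9 CPM (16.2 to 19.7) on the NASH diet, a log2 ratio of -3.91 (-4.06 to -3.77). Msmo1, the methyl oxidase of the complex, was measured at 374 CPM (368 to 379) on chow, against 15.7 CPM (14.1 to 17.4) on the NASH diet, a log2 ratio of -4.58 (-4.73 to -4.43). Nsdhl, the decarboxylating dehydrogenase of the same complex, was at 135 CPM (132 to 139) on chow, against 7.52 CPM (6.43 to 8.74) on the NASH diet, giving a log2 ratio of -4.17 (-4.40 to -3.95). Hsd17b7, the ketone reductase that completes the cycle, differed less than its partners. It was measured at 116 CPM (113 to 119) on chow, against 31.8 CPM (29.6 to 34.3) on the NASH diet, a log2 ratio of -1.87 (-1.98 to -1.76). The partners in 1 enzyme complex thus ranged from 23.9-fold lower for Msmo1 to 3.65-fold lower for Hsd17b7.

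The late double-bond steps held the members that differed least. Ebp, the sterol isomerase, was measured at 181 CPM (177 to 185) on chow, against 132 CPM (128 to 137) on the NASH diet, a log2 ratio of -0.45 (-0.51 to -0.39). Sc5d, the sterol desaturase, was measured at 344 CPM (339 to 350) on chow, against 155 CPM (150 to 161) on the NASH diet, a log2 ratio of -1.15 (-1.20 to -1.10). Dhcr7, the reductase of the last step in one branch, stood apart from both. Its level was 115 CPM (112 to 118) on chow, against 13.8 CPM (12.4 to 15.5) on the NASH diet, a log2 ratio of -3.05 (-3.22 to -2.89). Sc5d with 3512 UMIs and Ebp with 2992 made up most of the 8612 member UMIs in the NASH diet. The ratio of Ebp was the one nearest to no difference under each of the 11 alternative settings, and with a mitochondrial limit of 10% it was -0.08.

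**Figure D1:**
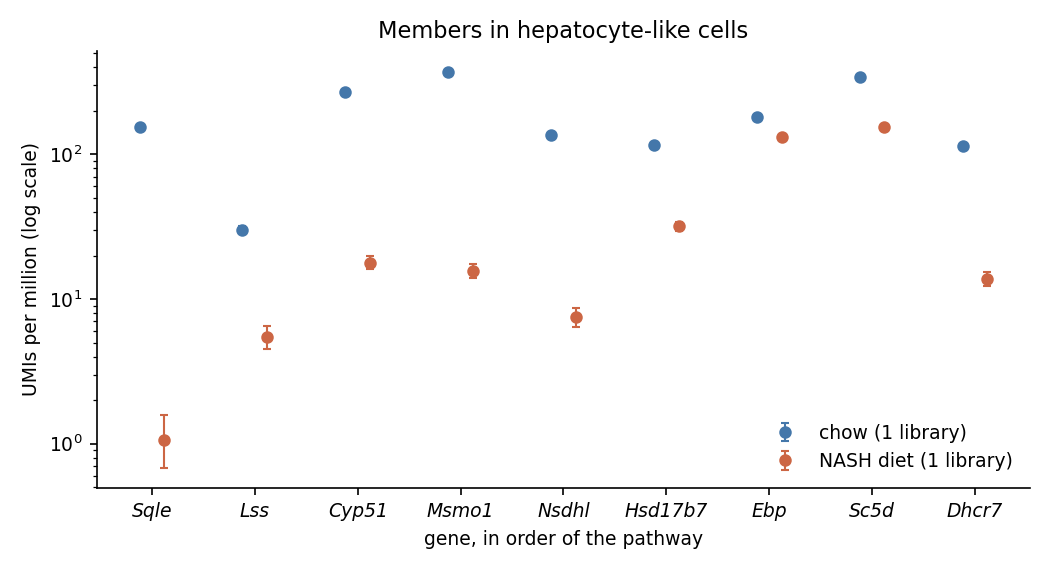
Level of each of the 9 members in hepatocyte-like cells, in CPM on a log scale, with 1 point for the chow library and 1 for the NASH diet library and exact 95% Poisson intervals. Sqle shows the widest gap, from 156 to 1.06 CPM, and Ebp the narrowest, from 181 to 132 CPM.

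The rest of the pathway was lower as well. Of 15 other sterol pathway genes, 13 were at least 2-fold lower in the NASH diet, with a median log2 ratio of -1.99, and 0 were higher by that much. Idi1, the isopentenyl isomerase upstream of squalene, had the lowest ratio of that list, -5.47 (-5.66 to -5.28), from 449 to 10.1 CPM. Hmgcs1, the synthase that feeds the mevalonate pathway, had a ratio of -4.08, from 675 to 39.9 CPM. Stard4, a sterol carrier, did not reach 2-fold, at -0.67. Srebf2 itself stood at 36.7 CPM in chow and 14.4 CPM in the NASH diet, a log2 ratio of -1.35 (-1.53 to -1.18).

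Genes that use or export sterol did not share this direction. Of 7 such genes tested, 0 were at least 2-fold lower and 3 were at least 2-fold higher, where 3.43% of all genes tested were higher by that much. Cyp7a1, the rate-limiting enzyme of bile acid synthesis, was higher at a log2 ratio of 2.64 (2.53 to 2.75). The sterol exporters Abcg5 and Abcg8 followed at 1.87 and 1.17. Soat2, which esterifies cholesterol, stood at 15.4 and 15.2 CPM. Other genes also differed between the libraries. Of 15 acute phase genes, which the liver makes in inflammation, 14 were at least 2-fold lower in the NASH diet, with a median log2 ratio of -2.17. Of 11 dissociation stress genes tested, 0 differed by 2-fold. Summed markers of endothelial cells in hepatocyte-like cells were 3.66 CPM in chow and 6.86 CPM in the NASH diet, those of neutrophils 0.62 and 10.2 CPM, those of cholangiocytes 157 and 108 CPM, and those of erythroid cells 44.8 and 187 CPM. The part of the acute phase difference and of these other cell types in the members' ratios was not tested.

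The sum was lower in the NASH diet in every range of cell depth. Hepatocyte-like cells and low-UMI barcodes holding hepatocyte RNA were pooled and split by total UMIs. The log2 ratio of the summed members was -2.42 (-2.65 to -2.20) under 2000 UMIs, -2.10 (-2.25 to -1.95) from 2000 to under 10000, -2.19 (-2.23 to -2.15) from 10000 to under 30000 and -2.13 (-2.19 to -2.07) from 30000. In the deepest bin, 603 chow cells gave 1737 CPM and 161 NASH diet cells gave 397 CPM. Sqle had 0 UMIs in the NASH diet in both bins under 10000 UMIs, against 72 and 134 UMIs in chow. Over the 5646 chow and 5413 NASH diet barcodes with at least 200 genes and 500 UMIs, of any cell class, split by mitochondrial share with CPM taken over UMIs outside mitochondrial transcripts, the log2 ratio was -1.37 where that share was under 10%. It was -2.30 from 10 to 20%, -2.07 from 20 to 30%, -2.19 from 30 to 80% and -1.94 over 80%, so the sum was lower in the NASH diet in every bin.

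The low-UMI barcodes, 1767 in chow and 990 in the NASH diet, held less member RNA, in CPM over UMIs outside mitochondrial transcripts, than hepatocyte-like cells. The log2 ratio of low-UMI barcodes to cells was -0.99 (-1.07 to -0.91) for the sum in chow and -0.93 (-1.10 to -0.77) in the NASH diet. Ebp was the exception in chow. It stood at 317 CPM in low-UMI barcodes and 220 CPM in cells, a log2 ratio of 0.52 (0.37 to 0.67), while Dhcr7 stood at 40.6 and 140 CPM, a ratio of -1.79 (-2.23 to -1.38). In the NASH diet the ratio of Ebp was -0.09 (-0.30 to 0.12), and that of Sc5d -1.75 (-2.11 to -1.41). Ebp also has the shortest longest transcript of the members in the annotation, at 1743 bases, and Sc5d the longest, at 4787 bases.

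Hepatocytes differ along the axis from the portal vein to the central vein, and sterol synthesis is known as a mainly periportal function. Cells were ranked within their own library by 8 pericentral markers such as Cyp2e1 less 8 periportal markers such as Cyp2f2, and cut into 3 groups of like size, periportal, middle and pericentral. A group is a range of ranks within 1 library and not a type. All 8 marker genes held out of the score went to their own side in both libraries, among them Glul, which in chow stood at 31.6 CPM in the periportal and 839 CPM in the pericentral group.

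In chow, the summed members stood at 1876 CPM (1856 to 1897) in the periportal group, 1844 CPM (1821 to 1866) in the middle group and 1419 CPM (1400 to 1438) in the pericentral group. The log2 ratio of the periportal to the pericentral group was 0.40 (0.38 to 0.43). Over 10 bins of the ranking the level began at 1692 CPM at the periportal end, was highest at 2024 CPM in bin 5 and was lowest at 1171 CPM at the pericentral end. In the NASH diet the bins ranged from 325 to 408 CPM with no such slope, and the ratio was 0.04 (-0.04 to 0.11). The median ratio of all genes was -0.12 in chow and -0.24 in the NASH diet. Most member UMIs of the NASH diet came from Sc5d and Ebp, and single members went to both sides, as given below. Depth varied along the ranking. The median in chow was 23798 UMIs in bin 5, 15038 in bin 6, 16447 in bin 7 and 24512 in bin 10. The part of depth in the level over bins was not tested. Acute phase genes summed to 92161, 92144 and 67452 CPM from the periportal to the pericentral group of chow, and to 16831, 16389 and 9005 CPM in the NASH diet. Their part in the zone ratios was not tested.

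**Figure D2:**
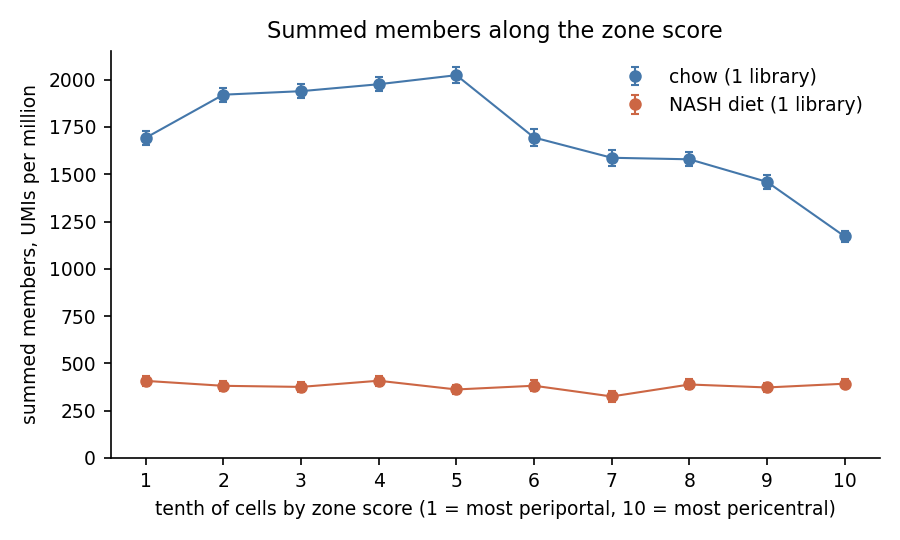
Summed level of the 9 members in CPM against 10 bins of hepatocyte-like cells ranked by zone score, from the most periportal (1) to the most pericentral (10), with exact 95% Poisson intervals, 1 line per library. The chow line drops from 2024 CPM in bin 5 to 1171 CPM in the last, and the NASH diet line stays between 325 and 408 CPM.

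Single members differed in how they followed the zone. In chow, 3 of 9 members were at least 1.5-fold higher in the periportal group, against 4.23% of 7739 genes, and 0 were lower by that much, against 7.91%. The first count was 2 to 4 over the 6 zone alternatives, since Lss and Cyp51 lie near that limit. Lss was at 0.57 per UMIs outside mitochondrial transcripts, and Cyp51 at 0.66 with zones from Cyp2e1 and Cyp2f2. Dhcr7 had the highest ratio, from 66.7 CPM in the pericentral to 146 CPM in the periportal group, a log2 ratio of 1.13 (1.03 to 1.24). Sqle followed at 0.79 (0.71 to 0.88), Lss at 0.60 (0.41 to 0.80) and Cyp51 at 0.57 (0.50 to 0.63). Sc5d at 0.46, Nsdhl at 0.37 and Msmo1 at 0.24 were less steep. Hsd17b7 at 0.06 (-0.03 to 0.15) did not differ beyond counting error, and Ebp was slightly below 0 at -0.090 (-0.16 to -0.02). The median of all genes in chow was -0.12, so Ebp stood near the typical gene.

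In the NASH diet, the 3 partners of the demethylation complex stood on the pericentral side. Msmo1 had 75 UMIs, 10.1 CPM (7.95 to 12.7), in the periportal group and 197 UMIs, 23.5 CPM (20.4 to 27.1), in the pericentral group, a log2 ratio of -1.22 (-1.62 to -0.83). For Nsdhl the 33 periportal and 91 pericentral UMIs gave -1.29 (-1.91 to -0.70). For Hsd17b7, 193 and 376 UMIs gave -0.79 (-1.05 to -0.53). These 3 of 9 were the members at least 1.5-fold lower, where 16.6% of 7982 genes were lower by that much and the median of all genes was -0.24. Hsd17b7 reached 64.0 CPM in the most pericentral bin against 25.8 CPM in the most periportal one. Cyp51 at 0.68 (0.33 to 1.03) and Dhcr7 at 0.81 (0.36 to 1.27) were on the periportal side, 2 of 9 against 4% of genes at least 1.5-fold higher. With cells of 10000 to 30000 UMIs Dhcr7 was at 0.41 and the count was 1, and over the 6 zone alternatives it ran from 1 to 3. Ebp at 0.20 and Sc5d at 0.15 were nearly even. Sqle had 7 and 9 UMIs in the outer groups, too few to show a zone difference, and its ratio moved from -0.19 to as much as 2.92 with other zone settings. Lss had 40 and 50. Whether the 2 libraries differ in these ratios was not tested.

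Some upstream genes leaned to the periportal side in chow and to the pericentral side in the NASH diet. Hmgcs1 had a periportal over pericentral log2 ratio of 0.29 (0.25 to 0.33) in chow and -1.51 (-1.77 to -1.26) in the NASH diet. Fdft1, the squalene synthase, had 0.32 (0.23 to 0.42) and -0.79 (-1.10 to -0.50). Neither gene reached 1.5-fold in chow. Of the 15 other sterol pathway genes in chow, 3 were at least 1.5-fold higher in the periportal group, against 4.23% of all genes, and 0 lower, against 7.91%. Of 14 with at least 20 UMIs in the NASH diet 1 was higher, against 4%, and 4 were lower, against 16.6%. The median ratio of all genes was -0.12 in chow and -0.24 in the NASH diet. Cyp7a1 was pericentral in both libraries, at -5.36 and -3.80.

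**Figure D3:**
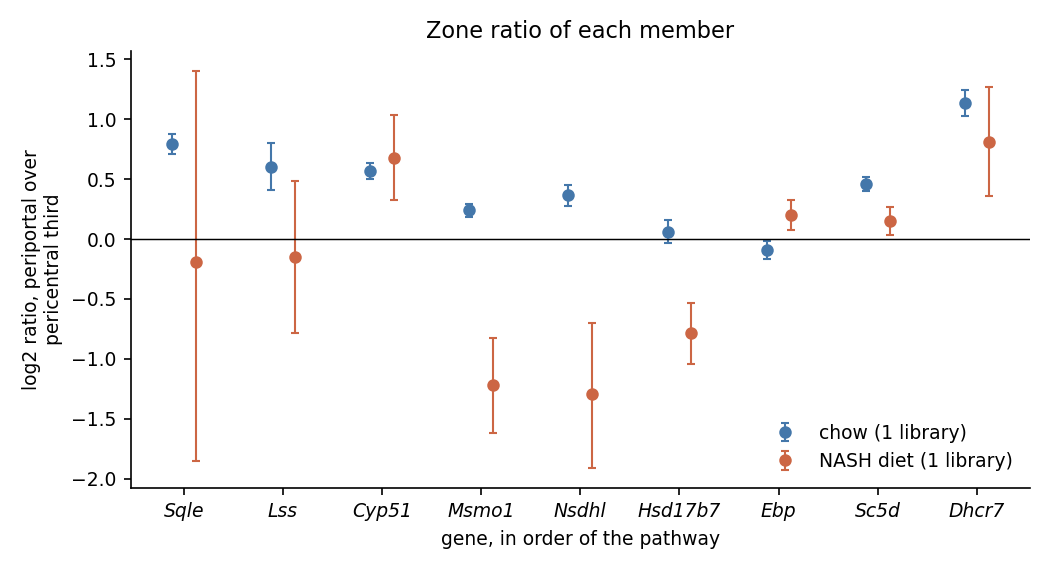
Log2 ratio of each member between the periportal and the pericentral group of hepatocyte-like cells, with exact 95% intervals of counting error, 1 point per library. Msmo1, Nsdhl and Hsd17b7 lie below 0 in the NASH diet, at -1.22, -1.29 and -0.79, and at or above 0 in chow.

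The difference between diets held within each zone. The log2 ratio of the summed members, NASH diet over chow, was -2.26 (-2.32 to -2.21) in the periportal, -2.31 (-2.37 to -2.26) in the middle and -1.90 (-1.95 to -1.85) in the pericentral group. Msmo1 was at -5.25 (-5.60 to -4.93) in the periportal and -3.80 (-4.01 to -3.59) in the pericentral group. Nsdhl was at -5.04 (-5.58 to -4.54) and -3.38 (-3.70 to -3.08). Ebp ran the other way, at -0.33 (-0.43 to -0.23) and -0.63 (-0.73 to -0.52).

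Across single cells the lower level was general. Cells were thinned to a fixed depth of 10000 UMIs, and 360 shallower cells of chow and 199 of the NASH diet were dropped. The median chow cell then held 17 member UMIs, with 5th and 95th percentiles of 7 and 29, and the median NASH diet cell held 4, with 1 and 8. None of 927 NASH diet cells reached the chow median, and 104 of them (11.2%) reached the chow 5th percentile. Of 1713 chow cells, 41 (2.39%) were at or below the NASH diet median. The variance over cells was 2.82 times the mean in chow and 1.24 times in the NASH diet, where sampling alone gives about the mean.

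**Figure D4:**
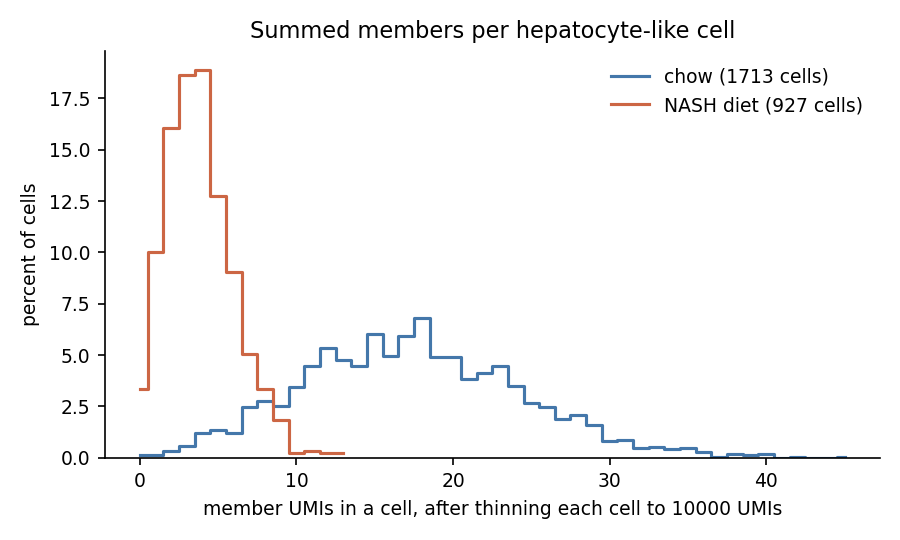
Percent of hepatocyte-like cells against the number of member UMIs in a cell, after each cell was thinned to 10000 UMIs, 1 line per library. The chow cells centre on 17 UMIs and the NASH diet cells on 4.

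Thinned to 5000 UMIs, 99.1% (98.5 to 99.5) of 1845 chow cells and 81.9% (79.4 to 84.2) of 1044 NASH diet cells held at least 1 member UMI, against 98.1% and 93.6% of all cells unthinned. By gene, 77.6% of chow cells and 8.24% of NASH diet cells held Msmo1, 922 of 1845 and 4 of 1044 held Sqle, and 58.7% and 45.4% held Ebp, where the unthinned shares were 89.2% and 23.8%, 80.8% and 1.78%, and 88.7% and 82.3%. Pairs of members were weakly correlated from cell to cell. Over 1713 thinned chow cells of 1 library, the median Pearson r of 36 pairs was 0.12 and the highest was 0.31, between Cyp51 and Msmo1. Over 927 NASH diet cells the median was 0.006 and the highest 0.11, between Cyp51 and Dhcr7. Sparse counts lower such values, and they are given as a description.

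Genes with the most similar profile to the mean of the members were sought over 20 strata of diet, zone group and depth, which share 2 libraries. They were Orm2 with a Pearson r of 0.98, Hmgcs1 and Apcs with 0.97, Lrg1 with 0.97 and Idi1 with 0.96. Over the 11 chow strata alone they were C8a (0.99), Lsr (0.98), Cp (0.97), Tgoln1 (0.96) and Serpina3n (0.96), and Ebp had an r of -0.32 with the members' mean there. The chow strata, which are also among the 20, included groups of 26 and 35 cells under 2000 UMIs, where a level rests on few UMIs. In its lowest chow stratum Lsr stood at 27.6 CPM and Lss at 0 CPM. The part of such strata in these r values was not tested. Over the 9 NASH diet strata the genes were others, Tm9sf3 (0.97), Rnf11 (0.95), Arl5a (0.95), Iqgap2 (0.95) and Fam168b (0.95). Several members did not follow their own mean there, with an r of -0.36 for Lss, 0.069 for Msmo1 and 0.074 for Dhcr7. These values describe the strata and carry no test.

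Other liver cells held fewer member transcripts than hepatocyte-like cells, and the diets differed less. The other cells numbered 182 in chow and 178 in the NASH diet, mostly mononuclear phagocyte-like (90 and 94), endothelial-like (42 and 43) and mesenchymal-like (42 and 32). Their summed level was 186 CPM (161 to 215) on chow, against 144 CPM (122 to 168) on the NASH diet, a log2 ratio of -0.37 (-0.69 to -0.06). Mononuclear phagocyte-like cells stood at 180 and 187 CPM, a ratio of 0.05 (-0.40 to 0.50), endothelial-like cells at 180 and 133 CPM, a ratio of -0.44 (-1.07 to 0.19), and mesenchymal-like cells at 238 and 116 CPM, a ratio of -1.04 (-1.73 to -0.35). The mesenchymal-like cells numbered only 18 and 19 at Leiden resolution 2.0. A second endothelial-like cluster of 25 and 12 cells appeared there, with a median of 852 UMIs and Fabp4, Gpihbp1 and Clec4g among its leading genes. The first endothelial-like cluster kept 42 and 43 cells. The mesenchymal-like ratio may thus rest in part on endothelial-like cells, which was not tested. The pooled ratio also depends on the clustering. At Leiden resolution 2.0 39 cells of chow and 8 of the NASH diet that formed a cholangiocyte-like cluster, with medians of 35510 and 25714 UMIs, joined this class and the ratio was -2.52, and without that cluster it was -0.41.

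Free RNA from broken hepatocytes gives UMIs in cells that do not express a gene, so the levels were set beside those of the 10 hepatocyte markers in the same cells. In chow the markers reached 6.30% of their hepatocyte level in other cells and the summed members 10.8% (9.34 to 12.5). In the NASH diet the markers reached 5.61% and the members 37.8% (32.1 to 44.2). The diet ratio of -0.37 in other cells was taken with free RNA left in. The summed members in hepatocyte-like cells stood at 1720 CPM in chow and 381 CPM in the NASH diet. The part of free RNA in the ratio of other cells was not tested. Sqle in chow, at 3.85% (1.41 to 8.37), Cyp51 at 5.94% (3.39 to 9.64), Sc5d at 6.95% (4.45 to 10.3) and Msmo1 at 8.0% (5.40 to 11.4) had intervals that held the marker share, as had Nsdhl at 11.1% (6.19 to 18.2) and Lss at 13.2% (3.6 to 33.8). Ebp at 32.6% (24.8 to 42.0), Dhcr7 at 14.7% (8.58 to 23.6) and Hsd17b7 at 13.7% (7.84 to 22.3) had intervals above that pooled share. Single markers spread widely around it. Fabp1 stood at 978 CPM in other cells and 5375 CPM in hepatocyte-like cells of chow, and Alb at 786 and 25304 CPM. Whether a member exceeds free RNA in other cells was not tested.

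The order of hepatocyte-like and other cells differed between the libraries for several members. In chow all 9 members were at least 2-fold higher in hepatocyte-like cells, against 12.8% of 10205 genes, and in the NASH diet 4 of 9 were, against 14.4% of 10501. Msmo1 stood at 29.9 CPM (30 UMIs) in other cells of chow and 31.4 CPM (34 UMIs) in those of the NASH diet, beside 374 and 15.7 CPM in hepatocyte-like cells. Its log2 ratio of hepatocyte-like to other cells was 3.64 (3.13 to 4.21) in chow and -1.0 (-1.51 to -0.45) in the NASH diet. Sqle went from 4.70 (3.58 to 6.15) in chow to -1.80 (-3.34 to 0.19) in the NASH diet, where other cells held 4 UMIs, and Nsdhl from 3.18 (2.45 to 4.01) to -0.43 (-1.31 to 0.60). Both of these NASH diet intervals include 0. Dhcr7 was at 0.45 (-0.41 to 1.47) in the NASH diet. The 4 members still at least 2-fold higher in hepatocyte-like cells of the NASH diet were Hsd17b7, Sc5d, Ebp and Cyp51, at 3.52, 2.70, 1.28 and 1.28. Lss was listed with 0 UMIs in the other cells of the NASH diet, which allows up to 3.40 CPM. Ebp stood at 58.8 and 54.4 CPM in other cells of chow and the NASH diet.

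**Figure D5:**
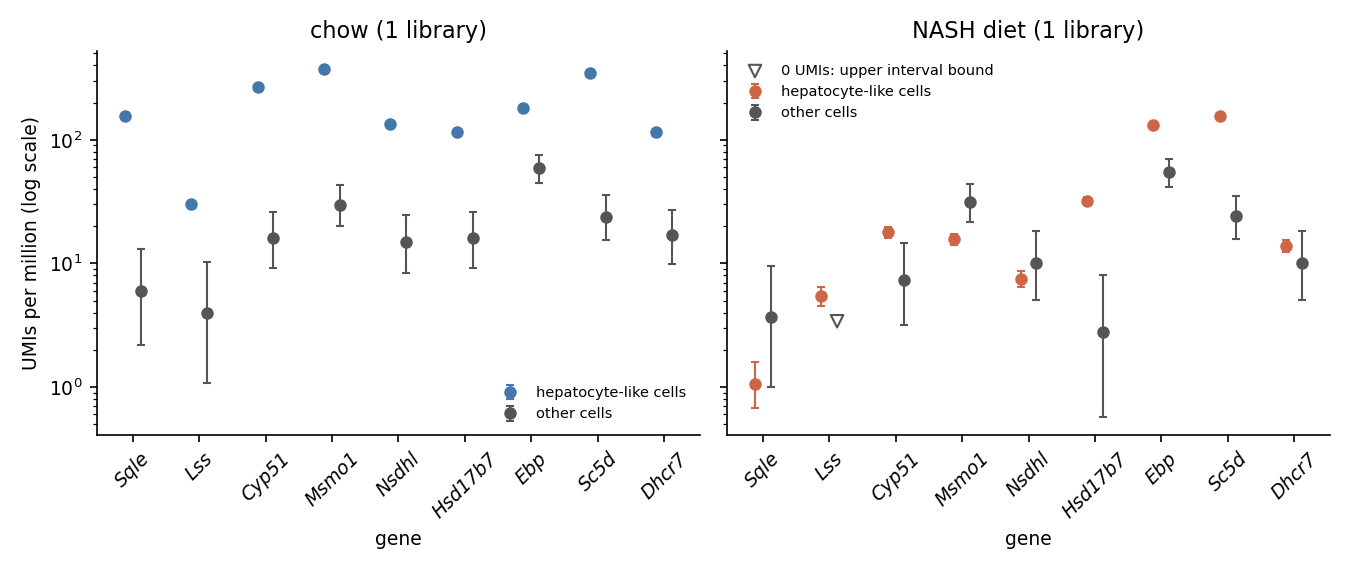
Level of each member in CPM on a log scale in hepatocyte-like cells and in other cells of the chow library (left) and the NASH diet library (right), with exact 95% Poisson intervals; an open triangle marks the upper bound of a gene with 0 UMIs. In chow all members are higher in hepatocyte-like cells, and in the NASH diet Msmo1 is at 15.7 CPM in hepatocyte-like and 31.4 CPM in other cells.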

How the data were processed

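The deposited matrices hold UMI counts as whole numbers for each barcode and gene, per the file headers. The libraries' own matrices, used for the main values, are not normalized, while the merged matrix holds only part of the chow UMIs. The files were written by software version 3.0.2 per their headers, and the submitters' processing notes list Cell Ranger 3.1.0, Seurat and the build mm10. Gene IDs were matched to GENCODE M21 (30934 IDs, 99.6% of 31053).

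Barcodes with at least 200 genes, 500 UMIs and at most 30% mitochondrial UMIs were kept. Scrublet called 0 doublets by its own threshold in either library, so the highest scores, at 0.8% per 1000 barcodes (433 and 277 barcodes), were removed. This left 4041 chow and 2305 NASH diet barcodes. They were clustered together in scanpy 1.11.5 (2000 variable genes without sterol pathway genes, 30 principal components, 15 neighbours, Leiden resolution 1.0) and named from marker lists, with limits for naming set after the clusters were seen. Low-UMI barcodes are clusters left unnamed for their low median UMI count. UMIs were summed over cells, and levels carry exact Poisson intervals, shares exact binomial (Clopper-Pearson) intervals and log2 ratios exact conditional binomial intervals, at 95%. A gene at 0 was set at 3 counts for a ratio. With 1 library a diet no test was made, and PCR and cell-to-cell spread are outside the intervals. On simulated counts for 7737 genes of the diet comparison, 95.4% of the intervals held the true ratio. The deposited merged matrix was an alternative. It held 86.4% of the chow UMIs and 100% of the NASH diet UMIs, with 0 counts above those of the libraries' own matrices. Columns of per-sample values left unmatched numbered 0. All 9 members and the fixed lists are named, together with the 5 genes most like the members, except that some genes of the lists are counted but not reported by name here. The members and lists, and the rule for naming genes, were chosen with earlier results of these data known.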

Additional observations from a re-analysis of the deposited data

Results flagged for a closer look

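The zone ratio of 3 members and the hepatocyte ratio of 1 member pointed in opposite directions in the 2 libraries, with both counting intervals clear of 0. Whether the libraries differ was not tested, since each diet has 1 library. Msmo1 had a log2 ratio of the periportal over the pericentral group of 0.24 in chow and -1.22 in the NASH diet. Nsdhl had 0.37 in chow and -1.29 in the NASH diet. Ebp had -0.090 in chow and 0.20 in the NASH diet, a small difference in both. The median of all genes was -0.12 and -0.24 there. Msmo1 had a log2 ratio of hepatocyte-like over other cells of 3.64 in chow and -1.0 in the NASH diet, the latter from 34 UMIs in other cells.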

How the results depend on the processing

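No paired analysis was possible because each diet has 1 library. The direction of every member's diet ratio held under all 11 alternatives. The median ratio of the 9 members, -3.05, was -2.81 with a mitochondrial limit of 10% and -2.67 with a pseudocount of 5 CPM, which by its construction draws the ratios of low genes towards 0. The chow zone ratio of the summed members, 0.40, was 0.47 with zones from Cyp2e1 and Cyp2f2, 0.48 with the outer 20% of cells on each side, 0.37 per UMIs outside mitochondrial transcripts and 0.45 as a mean over cells. Per UMIs outside mitochondrial transcripts, the depth ratios were -2.19 under 2000 UMIs and -2.13 from 10000 to under 30000. The ratio in other cells, -0.37, was -2.52 at Leiden resolution 2.0, and -0.41 there without the cholangiocyte-like cluster, an alternative chosen after seeing the data. The share of cells with any member UMI moves with depth: it was 91.8% in chow and 49.8% in the NASH diet thinned to 2000 UMIs, 99.9% and 96.7% at 10000, and 98.1% and 93.6% unthinned. Msmo1, Nsdhl and Hsd17b7 stayed pericentral in the NASH diet under all 6 zone alternatives, at -1.38 to -0.98, -1.47 to -0.97 and -0.98 to -0.68. Sqle there ranged from -0.19 to 2.92 on a few UMIs. The marker gate had 150 barcodes near its limit.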

Other observations

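Cycling cells, few in both libraries, held member levels near those of hepatocyte-like cells. In chow 19 such cells stood at 1323 CPM (1229 to 1422), 76.9% of the hepatocyte-like level, and in the NASH diet 5 cells stood at 524 CPM (387 to 695), 138% (102 to 183) of it. Hepatocyte markers stood at 80.7% and 105% of their hepatocyte-like level in the same cells. Within the chow cells Sc5d reached 410 CPM and Ebp 249 CPM, above the hepatocyte-like levels of 344 and 181 CPM, while Msmo1 at 195 CPM and Sqle at 77.1 CPM were below 374 and 156 CPM.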
